A study of Apis mellifera with 6 samples.

Results

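The cytoplasmic ribosomal protein genes of the honeybee were described here in ovaries whose activity differs with caste and social setting. They were taken by symbol: every gene entry whose name begins with RpL or RpS, with the mitochondrial mRpL and mRpS genes and the kinases left out. This rule found 64 of 11169 gene entries, 43 of the large subunit (RpL, with the stalk proteins RpLP0, RpLP1 and RpLP2) and 21 of the small subunit (RpS). Ovaries of Apis mellifera were dissected from queens about 12 months old that headed colonies and laid eggs, from queen-less workers and from queen-right workers. Queen-less workers came from nucleus boxes kept without a queen for 2 to 4 weeks, and their ovaries were scored 3 (active). Queen-right workers came from hives with a laying queen, and their ovaries were scored 0 (inactive). Each group is represented by 2 libraries, each from 1 pool of ovaries. The number of ovaries in a pool and the colonies behind it are not given in the sources used here, so p-values measure the spread between pools, which may be partly technical.

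Ribosomal proteins and ribosomal RNA form the large and the small subunit of the ribosome, which translates every cytoplasmic mRNA. Each protein is normally present once per ribosome, with the stalk proteins RpLP1 and RpLP2 as the known exception, so cells make these proteins in matched amounts. Their genes are short, are among the most strongly transcribed of a genome, and in Drosophila the loss of a single copy of many of them gives the Minute phenotype of slow growth and short bristles. In insect ovaries of the meroistic type, to which the honeybee belongs, nurse cells make ribosomes and pass them to the growing oocyte.

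The values are the authors' RPKM, the reads mapped to a gene entry per kilobase of its model, scaled to the number of mapped reads. Summed over all entries, RPKM came to 332091 and 331806 for queens, 336392 and 330953 for queen-less workers, and 385121 and 411992 for queen-right workers. Counts are not used here, and low values put the depth at no less than 5226000 to 5500000 mapped reads per library. Over the 64 ribosomal protein genes the pools of a group correlated with r = 0.996 in queens, 0.995 in queen-less workers and 0.987 in queen-right workers on the log2 scale, a description across genes. The germline genes vas and mael were found in every library: mael had 2309 and 2274 RPKM in queen ovaries, 1467 and 1950.2 RPKM in queen-less worker ovaries and 97.5 and 56.5 RPKM in queen-right worker ovaries. Of 14 germline markers 7 were matched, with summed levels of 3294 to 3400.2 RPKM in queen ovaries, 2619 to 2999 RPKM in queen-less worker ovaries and 1191 to 1243 RPKM in queen-right worker ovaries. That difference in the sum was carried by mael: the other 6 summed to 1020 to 1091 RPKM in queen ovaries, 1049 to 1151 RPKM in queen-less worker ovaries and 1094 to 1186 RPKM in queen-right worker ovaries. In limma mael, vas and BicC were higher in both kinds of active ovary than in queen-right worker ovaries, orb, which regulates mRNAs of the oocyte, was lower (-0.71 in queens and -0.63 in queen-less workers), and egl, nanos and spn-E were not called. Markers listed for muscle, fat body and hemocytes were also higher in the queen-right libraries. Whether this RNA came from other tissues or from the ovary itself was not tested. Of 18 muscle markers 5 were matched, with summed levels of 149 to 150.1 RPKM in queen ovaries, 233 to 269 RPKM in queen-less worker ovaries and 2219 to 2852 RPKM in queen-right worker ovaries. The 5 did not change alike. In queens against queen-right workers Mlc-c changed by -0.52 and Actn by -1.73, whereas Mlc2, TpnI and Mp20 changed by -5.70, -6.58 and -6.90. Most of the sum in queen ovaries was Mlc-c, with 91.2 and 95.1 RPKM. Of 7 fat body markers 5 were matched, at 6.45 to 26.7 RPKM in queen ovaries, 24.2 to 39.0 RPKM in queen-less worker ovaries and 1200.0 to 1506 RPKM in queen-right worker ovaries, and of 5 hemocyte markers 3 were matched, at 1.500 to 1.95, 2.42 to 2.78 and 16.3 to 17.3 RPKM in the same order of groups. The 1 neuron marker matched of 5, Syt1, stood at 8.06 to 8.73, 10.03 to 13.9 and 15.8 to 16.7 RPKM. None of the 13 muscle, fat body and hemocyte markers was at 0 in any library. All 13 were lower in both kinds of active ovary than in queen-right worker ovaries in limma (adjusted p of at most 0.05), and their part in the results that follow was not tested. Of the 8778 entries tested, 37.0% were called lower and 30.6% higher in queen-less workers against queen-right workers. In queens against queen-right workers the shares were 40.6% and 31.3%.

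Ribosomal protein mRNA took up a much smaller share of the transcriptome in active ovaries. The 64 genes held 5.08% and 4.76% of the summed RPKM in queen libraries, 6.27% and 5.41% in queen-less worker libraries, and 13.0% and 14.02% in queen-right worker libraries. Group means were 4.92% ± 0.227 in queens, 5.84% ± 0.611 in queen-less workers and 13.5% ± 0.720 in queen-right workers (SD, n = 2 each). The shares of the 3 groups did not overlap. With 2 pools against 2 a two-sided exact permutation test cannot go below p = 0.333, which is the value of each of the 3 comparisons of shares. The median gene of the family stood at 213 and 199 RPKM in queen ovaries, 287 and 239.9 RPKM in queen-less worker ovaries, and 725 and 821 RPKM in queen-right worker ovaries. Among the 100 entries with the highest RPKM of a library, 20 and 18 were ribosomal protein genes in queens, 26 and 23 in queen-less workers, and 49 and 50 in queen-right workers. In bulk tissue, fewer cells of a type and less RNA of a gene in each cell cannot be told apart.

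**Figure D1:**
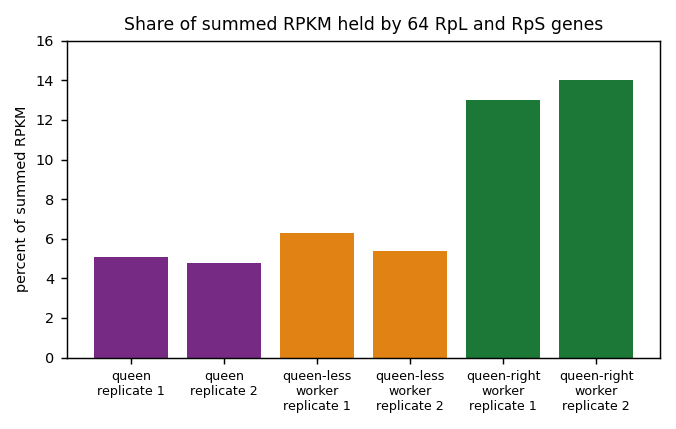
Bars give the percent of summed RPKM held by the 64 RpL and RpS genes in each of the 6 libraries (vertical axis from 0). The queen libraries stand at 5.08% and 4.76%, the queen-less worker libraries at 6.27% and 5.41%, and the queen-right worker libraries at 13.0% and 14.02%.

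Levels differed widely within the family in every ovary type. RpL14, a protein of the large subunit's surface, had 713 and 705 RPKM in queen ovaries, 912 and 709 RPKM in queen-less worker ovaries and 2631 and 2693 RPKM in queen-right worker ovaries. In queen-right worker ovaries it stood at rank 6 of all 11169 entries by mean RPKM, and RpL36A, which lies at the exit site for tRNA, at rank 7. RpL36A had 1123 and 1144 RPKM in queen ovaries, 1183 and 995 RPKM in queen-less worker ovaries and 2132 and 2232 RPKM in queen-right worker ovaries, and it led the family in both kinds of active ovary. The stalk protein RpLP1 held rank 3 of the family in queen-right worker ovaries and held rank 14 of the 64 genes in queens and rank 9 in queen-less workers. RpS7 and RpS25 were among the small-subunit genes with the highest means over the 6 libraries (736 and 705 RPKM). At the other end, RpL10Ab, the protein of the mobile L1 stalk that guides spent tRNA out of the ribosome, had 18.4 and 14.9 RPKM in queen ovaries, 20.4 and 18.6 RPKM in queen-less worker ovaries and 64.1 and 75.9 RPKM in queen-right worker ovaries. RpL37A and RpL37, which both bind zinc, were next above it in active ovaries, with group means of 31.0 and 42.2 RPKM in queens and 47.8 and 64.6 RPKM in queen-less workers. Among small-subunit genes RpS30, RpS9 and RpS13 had the lowest means (157, 212 and 238 RPKM). The SD of log2 RPKM over the 64 genes was 1.03 in queens, 0.958 in queen-less workers and 0.853 in queen-right workers (means of 2 libraries). Across the 64 genes the group means ranked similarly in queens and queen-less workers (Spearman 0.986) and less so in queens and queen-right workers (0.834) or in queen-less and queen-right workers (0.873), given as a description without a p-value since genes are not independent samples. RPKM depends on the gene model used for the length, and how reads shared by near copies were counted is not given in the sources used here.

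**Figure D2:**
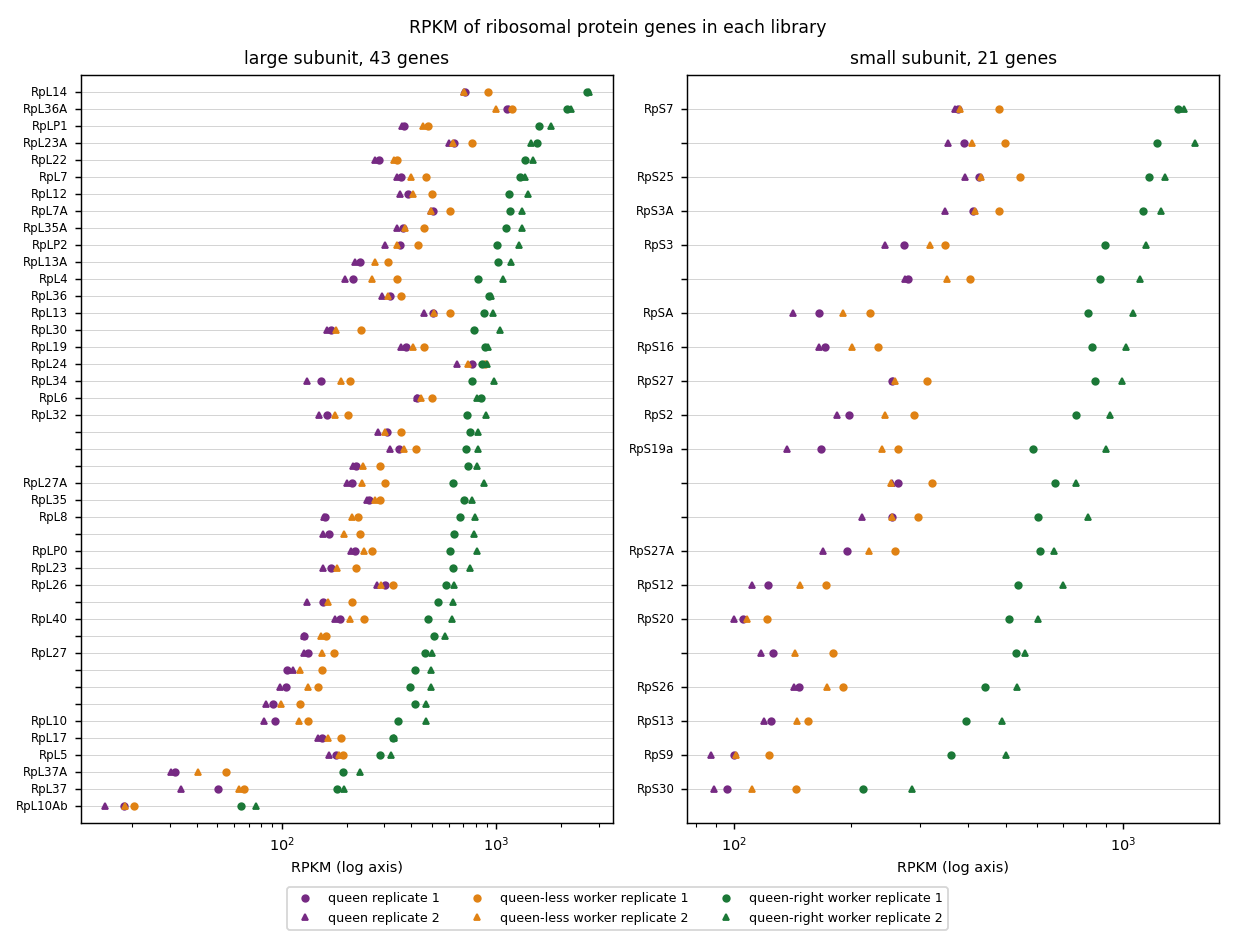
RPKM of each ribosomal protein gene on a log axis, large-subunit genes on the left and small-subunit genes on the right, ordered by their mean in queen-right workers (rows without a name are members not named in the text). Each point is 1 library (a circle for replicate 1 and a triangle for replicate 2). The queen-right worker points lie to the right of the others in all rows but that of RpL24.

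The comparison of queen-less with queen-right workers asks which genes differ between the active and the inactive ovary of the same caste. These groups also differ in the presence of a queen and in housing, which cannot be told apart from ovary activity here. Of the 64 ribosomal protein genes 63 were lower in queen-less worker ovaries and none was higher, at a Benjamini-Hochberg adjusted p of at most 0.05 in limma fitted to the 8778 entries that reached 1 RPKM in 2 or more libraries. None was higher at an unadjusted p under 0.05 either. The test called 67.6% of all those entries, 37.0% as lower and 30.6% as higher. All 64 genes passed this filter on low values. Their median log2 fold change was -1.36, a 2.58-fold lower level, where that of all tested entries was -0.13. Fold changes here are on the log2(RPKM + 1) scale with the authors' library factors, which understates the change of low entries. After scaling, both queen-less libraries lay below both queen-right libraries in 63 genes, as 46.4% of all tested entries did, and 52 genes had a log2 fold change of -1 or below, as 21.4% of all tested entries did. The medians of the subunits were -1.36 over the 43 large-subunit genes and -1.41 over the 21 small-subunit genes.

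**Figure D3:**
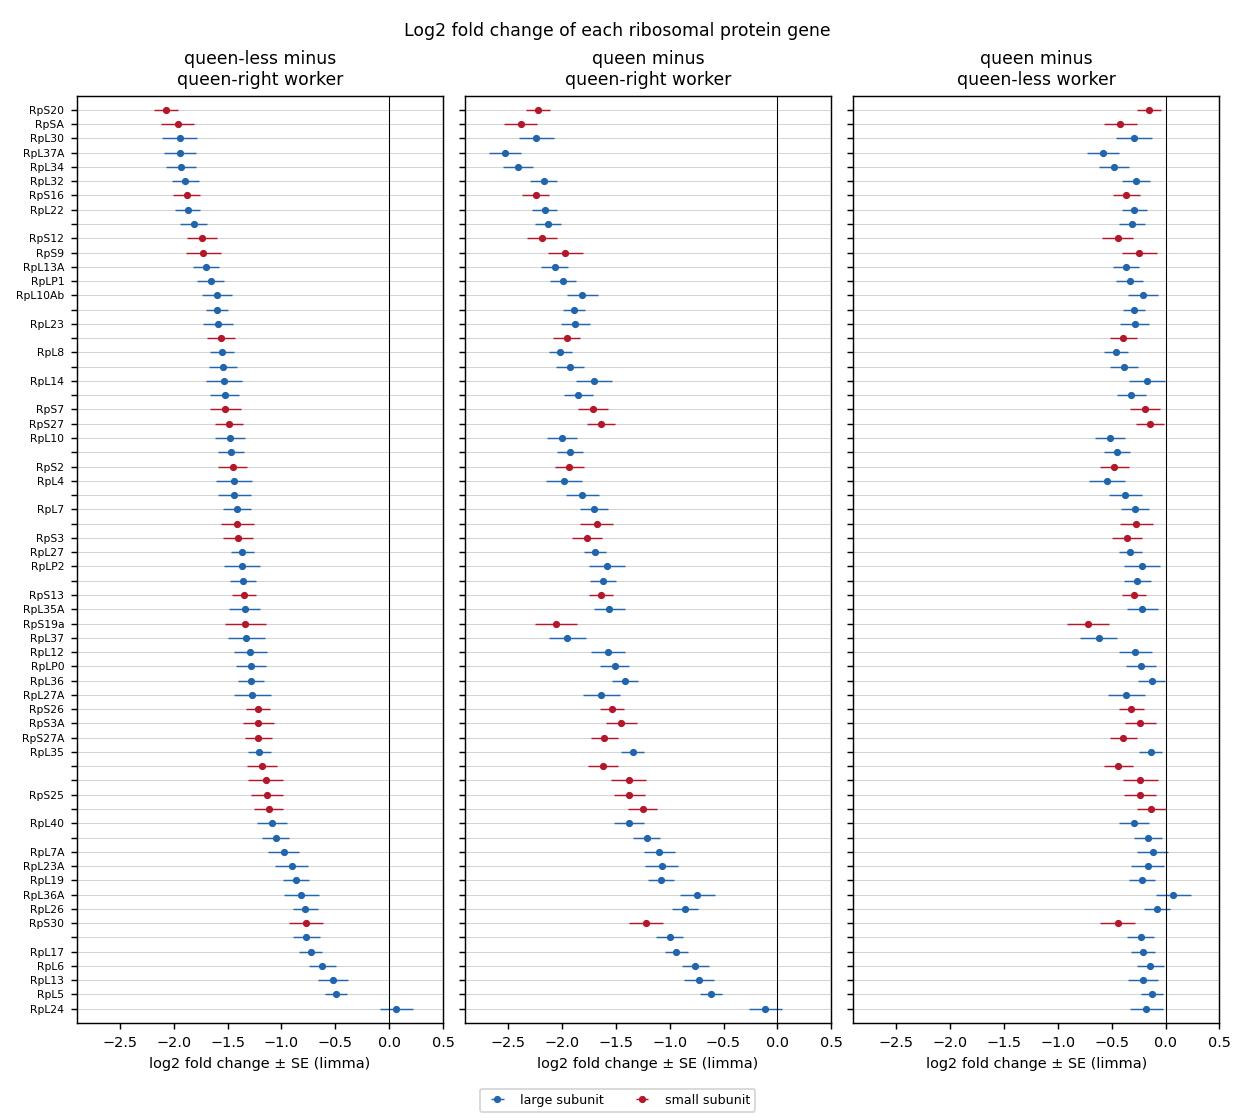
Log2 fold change of each ribosomal protein gene from limma, with its SE as a bar, for queen-less minus queen-right worker, queen minus queen-right worker and queen minus queen-less worker ovaries, ordered by the first (rows without a name are members not named in the text). Values run from -2.07 (RpS20) to 0.06 (RpL24) in the first panel and from -2.53 (RpL37A) to -0.11 (RpL24) in the middle one, and lie between -0.72 (RpS19a) and 0.07 (RpL36A) in the third.

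The 21 small-subunit genes were all lower in queen-less worker ovaries, by 0.77 to 2.07 on the log2 scale. RpS20 (gene ID 726013), a protein of the small subunit's head, had 122 and 108 RPKM in queen-less worker ovaries, against 509 and 605 RPKM in queen-right worker ovaries. Its log2 fold change of -2.07 ± 0.11 (SE) was the largest of the family (limma adjusted p = 8.05e-06). RpSA, the homologue of the vertebrate laminin receptor and the product of the Drosophila gene stubarista, had 224 and 191 RPKM in queen-less worker ovaries, against 811 and 1057 RPKM in queen-right worker ovaries, a log2 fold change of -1.96 ± 0.15 (SE). RpS16, whose tail reaches the tRNA in the peptidyl site, had 235 and 202 RPKM in queen-less worker ovaries, against 833 and 1013 RPKM in queen-right worker ovaries, with a change of -1.88 ± 0.13 (SE). The 2 queen-right pools lay apart in these genes by less than their distance to either queen-less pool. The genes that line the mRNA entry all fell: RpS3 changed by -1.41, RpS2 by -1.45 and RpS30, which in mammals is made as a fusion with a ubiquitin-like protein, by -0.77 on the log2 scale. RpS30 fell least among the small-subunit genes, with 144 and 111 RPKM in queen-less worker ovaries, against 214 and 288 RPKM in queen-right worker ovaries. In the beak of the small subunit RpS12, which in Drosophila is needed for the elimination of Minute cells by their neighbours, changed by -1.74, and RpS27A, made as a fusion with ubiquitin, by -1.21. RpS26 at the mRNA exit changed by -1.22. RpS25 was also towards the weak end, at -1.14.

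Large-subunit genes spread more widely, and the weakest changes were among them. RpL30, which in yeast binds its own transcript, had 234 and 178 RPKM in queen-less worker ovaries, against 788 and 1033 RPKM in queen-right worker ovaries, and RpL37A had 55.0 and 40.6 RPKM in queen-less worker ovaries, against 192 and 232 RPKM in queen-right worker ovaries. RpL34 had 208 and 189 RPKM in queen-less worker ovaries, against 767 and 977 RPKM in queen-right worker ovaries. These 3 had the largest changes of the large subunit, -1.94, -1.94 and -1.93 on the log2 scale, with queen-less and queen-right libraries well apart. RpL32, known in flies as rp49 and often taken as a steady reference gene in quantitative PCR, came next at the strong end: it had 202 and 176 RPKM in queen-less worker ovaries, against 728 and 889 RPKM in queen-right worker ovaries, a change of -1.89 ± 0.13 (SE) with a limma adjusted p of 1.64e-05. The 4 genes of the stalk that recruits elongation factors were all lower, with RpLP1 at -1.66, RpLP2 at -1.36, its base RpLP0 at -1.29 and the neighbouring RpL12 at -1.29. All 8 genes matched around the peptide exit tunnel were lower too, with a median of -1.06, but over a wide range. RpL22 at the tunnel's outer face changed by -1.87 and RpL4, whose loop lines the tunnel, by -1.44, whereas RpL19, RpL26 and RpL17 at the rim changed by -0.86, -0.78 and -0.73. RpL40, the other ubiquitin fusion, changed by -1.09. RpL5 (gene ID 552241), which carries the 5S ribosomal RNA into the large subunit, had 192 and 185 RPKM in queen-less worker ovaries, against 286 and 323 RPKM in queen-right worker ovaries, a change of -0.49 ± 0.10 (SE) (adjusted p = 0.00393), and RpL13 had 609 and 511 RPKM in queen-less worker ovaries, against 877 and 960.0 RPKM in queen-right worker ovaries (-0.52 ± 0.14 (SE), adjusted p = 0.0114). Both groups stayed apart in each of these genes. Without queen-less worker replicate 2 the adjusted p of RpL13 was 0.0554, with the queen-less pool left assumed to vary like the other groups.

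RpL24 was the 1 ribosomal protein gene of the 64 that was not called in either comparison with queen-right workers. RpL24 (gene ID 724142), which forms a bridge between the subunits at their interface, had 767 and 655 RPKM in queen ovaries, 882 and 736 RPKM in queen-less worker ovaries and 859 and 903 RPKM in queen-right worker ovaries. Its queen-less libraries overlapped with the queen-right libraries, and its log2 fold change in queen-less against queen-right workers was 0.06 ± 0.15 (SE), adjusted p = 0.725 in limma. In queens against queen-right workers it was -0.11 ± 0.15 (SE), adjusted p = 0.529, and after the authors' factors its queen and queen-right libraries overlapped too. RpL24 held rank 2 of the 64 genes in queens, rank 3 in queen-less workers and rank 26 in queen-right workers. Its sign was not stable: it was -0.13 in queen-less against queen-right workers without the authors' factors and 0.67 after quantile normalization (adjusted p = 0.00259), and in queens against queen-right workers it ran from -0.31 to 0.64 over the alternatives.

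Since nearly all members fell, each library was also scaled to the median of its own 64 ribosomal protein genes and the fit was repeated, which asks whether a gene fell more or less than the family's median gene. This scaling was added after the data had been seen. In queen-less against queen-right workers 13 genes lay above the family's median change and 13 below it at an adjusted p of at most 0.05, where on this scale 72.1% of all tested entries lay above and 6.49% below. The 13 above were 12 large-subunit genes and RpS30, and the 13 below were 8 large-subunit and 5 small-subunit genes. RpL24 led those above with 1.42 (adjusted p = 3.51e-06), or 1.37 to 1.48 when single libraries were left out, followed by RpL5 at 0.87, RpL13 at 0.83 and RpL6 at 0.74. Those below were led by RpS20 at -0.71 (adjusted p = 3.74e-04), RpSA at -0.60 and RpL30 at -0.58. In log2 RPKM minus the family's median, RpL24 stood at 1.84 and 1.72 in queens, 1.62 and 1.61 in queen-less workers, and 0.24 and 0.14 in queen-right workers. In queens against queen-right workers 20 genes lay above (15 large-subunit and 5 small-subunit) and 14 below (10 and 4), where 76.3% of all tested entries lay above and 6.86% below. RpL24 led again with 1.59 (adjusted p = 1.20e-06, 1.53 to 1.65 with single libraries left out), and RpL37A was lowest with -0.83. These comparisons share the queen-right libraries, so the 2 lists are not independent of each other. Leaving out single libraries gave 23 to 26 genes apart from the median in queen-less against queen-right workers, and 24 to 34 in queens against queen-right workers.

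Queens were compared with queen-right workers, the active ovary of the reproductive caste with the inactive ovary of the helper caste. Here too 63 of the 64 genes were lower, in queen ovaries, and none was higher in limma, at an adjusted p of at most 0.05 or at an unadjusted p under 0.05, where 71.8% of all tested entries were called, 40.6% as lower and 31.3% as higher. The median log2 fold change was -1.69, a 3.22-fold lower level, against -0.19 over all tested entries. After scaling, both queen libraries lay below both queen-right libraries in 63 genes, as 48.8% of all tested entries did. Changes of -1 or below were seen in 57 genes (26.6% of all tested entries) and of -2 or below in 13 (8.93% of all tested entries). RpL37A had 31.7 and 30.4 RPKM in queen ovaries, against 192 and 232 RPKM in queen-right worker ovaries, and its -2.53 ± 0.15 (SE) was the largest change of the family (adjusted p = 6.86e-06). RpL34 had 153 and 131 RPKM in queen ovaries, against 767 and 977 RPKM in queen-right worker ovaries (-2.41 ± 0.14 (SE)). RpSA had 166 and 142 RPKM in queen ovaries, against 811 and 1057 RPKM in queen-right worker ovaries (-2.38 ± 0.15 (SE)), the largest change of the small subunit. RpS16, RpL30 and RpS20 followed with -2.24, -2.24 and -2.22. The stalk genes had a median of -1.58 and the tunnel genes of -1.21, with -1.99 in RpLP1, -1.59 in RpLP2, -1.51 in RpLP0, -2.16 in RpL22 and -0.86 in RpL26. The 2 beak genes, RpS12 and RpS27A, stood at -2.18 and -1.61, and the ubiquitin fusion RpL40 at -1.38. The smallest changes that passed were those of RpL5, with 179 and 165 RPKM in queen ovaries, against 286 and 323 RPKM in queen-right worker ovaries (-0.62 ± 0.10 (SE), adjusted p = 0.00111), RpL13 (-0.73), RpL36A (-0.74) and RpL6 (-0.76). In the small subunit RpS30 and RpS25 were among those that changed least, at -1.22 and -1.37.

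Between the active ovaries of queens and queen-less workers no ribosomal protein gene passed limma at an adjusted p of 0.05, where 1.48% of all tested entries did (1.40% as lower and 0.0797% as higher). At an unadjusted p under 0.05 there were 28 of the 64, where 16.2% of all tested entries had such a p, and after quantile normalization 1 gene was called, RpL8 (-0.55, adjusted p = 0.0485). Estimates were below 0 in 63 genes, and in 5036 of the 8778 tested entries. The median was -0.28 against -0.05 over all tested entries. In 54 genes both queen libraries lay below both queen-less libraries, as in 34.5% of all tested entries. RpL8 had the smallest adjusted p, 0.109, with 159 and 156 RPKM in queen ovaries, against 226 and 211 RPKM in queen-less worker ovaries (-0.46 ± 0.11 (SE)). RpS19a, whose human homologue is mutated in Diamond-Blackfan anaemia, had 167 and 137 RPKM in queen ovaries, against 264 and 239 RPKM in queen-less worker ovaries (-0.72 ± 0.19 (SE), adjusted p = 0.143), the largest estimate of the family. In both genes the queen libraries were below the queen-less libraries. RpL37, with 50.5 and 33.9 RPKM in queen ovaries, against 66.4 and 62.7 RPKM in queen-less worker ovaries, had -0.62 ± 0.17 (SE), and RpL4, with 215 and 196 RPKM in queen ovaries, against 344 and 264 RPKM in queen-less worker ovaries, had -0.54 ± 0.17 (SE). At the other end were RpL36A (0.07), RpL26 (-0.08) and RpL7A (-0.12), and without queen-less worker replicate 1 RpL26 turned to 0.0025 and RpL7A to 0.0176. The pools of a group differed across the family by amounts of the same order. After scaling, queen replicate 2 was below replicate 1 in 61 of 64 genes (median difference -0.09), queen-less worker replicate 2 was below replicate 1 in all 64 (-0.20), and queen-right worker replicate 2 was above replicate 1 in 56 of 64 (0.16). After scaling to the family's own median no gene lay apart from it in limma between queens and queen-less workers either, where 0.171% of all tested entries lay above and 0.581% below, and 4 of the 64 had an unadjusted p under 0.05, as did 28.5% of all tested entries. Leaving out single libraries moved the median log2 fold change between queens and queen-less workers over -0.38 to -0.17.

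The mitochondrial ribosomal protein genes, which build the separate ribosome of the mitochondrion, were used as a second family of like kind. Of 56 mRpL and mRpS genes 25 were lower and 3 higher in queen-less worker ovaries, set against queen-right ones (median -0.33), and 21 were lower and 5 higher in queen ovaries (median -0.26). The shares that were lower, 44.6% and 37.5%, lay near those of all tested entries (37.0% and 40.6%), and the shares that were higher, 5.36% and 8.93%, stood beside 30.6% and 31.3% of all tested entries. No mRpL or mRpS gene was called between queens and queen-less workers in limma, with 8 of the 56 at an unadjusted p under 0.05, near the share of 16.2% over all tested entries. The gap between the medians of both families, cytoplasmic minus mitochondrial on the log2 scale, was 2.77 and 2.62 in queen libraries, 3.17 and 3.00 in queen-less worker libraries, and 3.99 and 4.19 in queen-right worker libraries. It needs no scaling between libraries. The mean gap differed by -1.01 in queen-less against queen-right workers and by -1.40 in queens against queen-right workers, without overlap of the groups (two-sided exact permutation p = 0.333, the smallest 2 against 2 allows). Entries of like level or length were counted as well. Of 549 entries outside the family with a mean of at least 100 RPKM, 31.0% were lower and 53.6% higher in queen-less workers. Of 3434 other entries spanning under 3000 bases 41.8% were lower, and of 178 entries with both properties 41.0% were lower. In queens against queen-right workers the shares that were lower were 34.6%, 44.03% and 47.2% of the same 3 sets. Across the 64 genes the level in queen-right workers and the log2 fold change had a Spearman of 0.0406 for queen-less and 0.108 for queen ovaries. The same queen-right values enter the fold change with a minus sign, so these 2 values cannot show whether the change depends on level. The span of a gene had a Spearman of 0.268 and 0.204 with the log2 fold change. All are given as descriptions across genes.

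**Figure D4:**
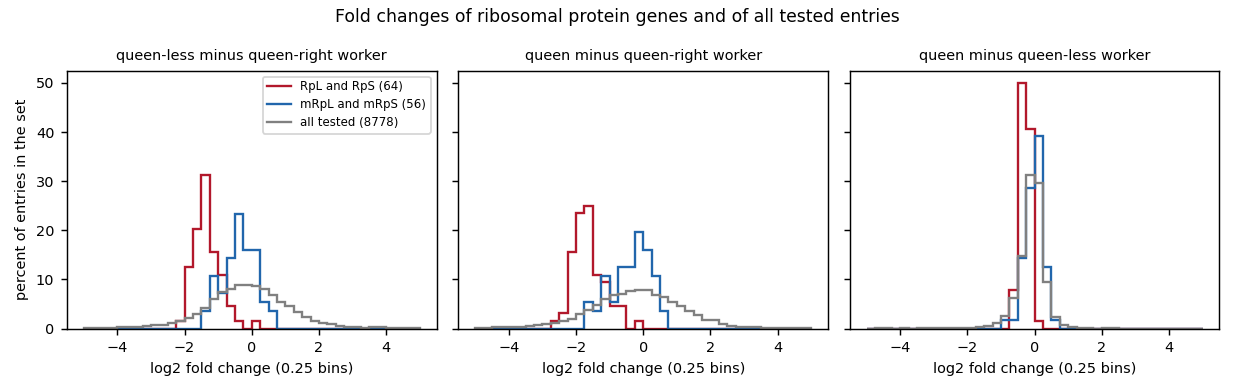
Distribution of log2 fold changes (bins of 0.25, percent of each set) for the 64 RpL and RpS genes, the 56 mRpL and mRpS genes and all 8778 tested entries. The medians of the 3 sets are -1.36, -0.33 and -0.13 for queen-less minus queen-right workers, -1.69, -0.26 and -0.19 for queens minus queen-right workers, and -0.28, 0.02 and -0.05 for queens minus queen-less workers.

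How far the family fell depended on how libraries were scaled. Without the authors' factors the median of all tested entries was -0.32 in place of -0.13 for queen-less against queen-right workers and -0.39 in place of -0.19 for queens against queen-right workers, and with factors from a trimmed mean of log ratios it was near 0. A scaling by 1 factor per library shifts every entry alike, so the distance of the ribosomal protein median from the median of all tested entries, -1.23 and -1.50, is fixed by arithmetic under all of these. Quantile normalization, which forces the libraries onto 1 distribution, lessened that distance to -0.80 and -1.23, and the median log2 fold changes of the family were then -0.84 and -1.24. Under it 58 genes were lower and RpL24 was higher in queen-less worker ovaries, and RpL6, RpL13, RpL19 and RpL26 were among those no longer called. In queen ovaries 60 were lower and RpL24 was higher, and RpL6, RpL13 and RpL26 were no longer called.

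**Figure D5:**
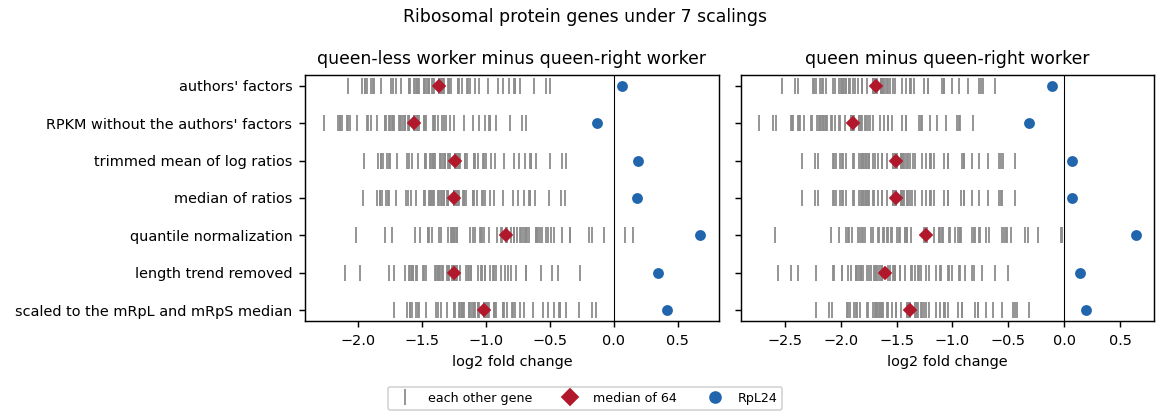
Log2 fold changes of the ribosomal protein genes under 7 scalings, for queen-less minus queen-right worker and queen minus queen-right worker ovaries. Ticks are single genes, the diamond is the median of the 64 genes and the circle is RpL24. The median runs from -1.56 to -0.84 in the left panel and from -1.89 to -1.24 in the right one, and RpL24 lies to the right of all other genes in every row.

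Rpl41 and Rpl39, left out by the rule because their symbols are written in another letter case, were lower in active ovaries too. They are the smallest protein of the ribosome and a lining of the exit tunnel, and changed by -1.07 and -0.83 in queen-less workers and by -1.08 and -1.05 in queens, all at adjusted p values of at most 0.00124. Rack1, a signalling scaffold that sits on the head of the small subunit, was lower as well and had 55.9 and 46.9 RPKM in queen-less worker ovaries, against 206 and 287 RPKM in queen-right worker ovaries, a change of -2.03 ± 0.15 (SE) (limma adjusted p = 2.55e-05), and 38.6 and 37.5 RPKM in queen ovaries (-2.44 against queen-right workers).

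Genes listed for ribosome assembly changed in both directions in active ovaries. From a list of 59 symbols 9 were matched, Rack1 among them. In queen-less against queen-right workers 5 of the 9 were higher, 2 lower and 2 not called (median 0.47), where 30.6% of all tested entries were higher and 37.0% lower. Nnp-1, a nucleolar protein of the rRNA-processing machinery, had 54.5 and 61.8 RPKM in queen-less worker ovaries, against 31.4 and 18.4 RPKM in queen-right worker ovaries (1.43 ± 0.24 (SE), adjusted p = 0.00125). Noc2, which carries large-subunit precursors towards export, had 23.5 and 33.4 RPKM in queen-less worker ovaries, against 14.2 and 11.8 RPKM in queen-right worker ovaries (1.25 ± 0.22 (SE)), and bys, needed for the small subunit, had 81.3 and 68.0 RPKM in queen-less worker ovaries, against 45.2 and 40.2 RPKM in queen-right worker ovaries (0.98 ± 0.13 (SE)). In these 3 genes both queen-less libraries lay above both queen-right libraries. Nmd3, the export adaptor of the large subunit, was higher by 0.47 and Rrp1, a symbol that in Drosophila stands for a DNA repair protein, by 0.55, whereas eIF6, which keeps the subunits apart until the large one is mature, changed by -0.68. Fib, the methyltransferase of the small nucleolar RNPs, had 56.6 and 53.6 RPKM in queen-less worker ovaries, against 57.5 and 61.0 RPKM in queen-right worker ovaries and was not called (adjusted p = 0.428). NHP2 was not called either (-0.19, limma adjusted p = 0.294). In queens against queen-right workers 5 of the 9 were higher and 3 lower (median 0.46), with bys at 1.16, Noc2 at 1.60 and Nnp-1 at 1.61. The 3 lower were Rack1 (-2.44), eIF6 (-0.66) and NHP2 (-0.38, limma adjusted p = 0.048). Between queens and queen-less workers the smallest adjusted p of the 9 was 0.246, that of Rack1. The counts and medians include Rrp1 and Rack1, whose part in ribosome assembly was not tested. Most symbols of the list were not matched, so this is an account of the matched genes alone.

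The 64 genes are spread over 52 scaffolds of the assembly used by the authors, 41 of which hold a single member and none more than 3. The closest pair on a scaffold, RpS13 and RpL10, lies 83195 bases apart with 14 other entries between. Their spans run from 695 to 34974 bases with a median of 1781, where the median of all entries is 3548, and 48 of the 64 span under 3000 bases. Members whose symbols differ only by a letter are not thereby copies of each other. Such pairs included RpL13 and RpL13A, RpL37 and RpL37A, and RpL36 and RpL36A. They changed by -0.52 and -1.70, -1.33 and -1.94, and -1.28 and -0.82 in queen-less against queen-right workers. The other such pairs were RpL7 and RpL7A (-1.42 and -0.98), RpL23 and RpL23A (-1.59 and -0.90), RpL27 and RpL27A (-1.36 and -1.27), RpL35 and RpL35A (-1.21 and -1.34), RpS3 and RpS3A (-1.41 and -1.21), and RpS27 and RpS27A (-1.49 and -1.21). The build of the assembly is not given in the sources used here, so no coordinates are printed.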

How the data were processed

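RNA was sequenced from 6 pools of honeybee ovaries, 2 each from queens, queen-less workers and queen-right workers, with groups taken from the labels. RPKM per gene entry were deposited, and a normalized signal that the authors made as RPKM + 1 times 1 factor per library, used here only to recover that factor. The deposited start and end of each entry gave its span. The aligner, counting program and build are not given in the sources used here. The deposited adjusted p-values of the authors' comparisons were not used, nor were 12 further columns of sample values, counted over all 6 libraries. Tests had to fit RPKM, so limma 3.58.1 (R 4.3.3) was run on log2(RPKM + 1) plus the log2 factor, with a variance trend, 1 mean per group and all 6 libraries in 1 fit. Of 11169 entries, the 8778 that reached 1 RPKM in 2 or more libraries entered the test, and p-values were adjusted by Benjamini-Hochberg over them (threshold 0.05). The fit was tested on simulated data. Summaries used Python 3.11.15, numpy 2.4.6 and pandas 2.3.3. Of the gene IDs 8962 (63 of the 64 members) matched Amel_HAv3.1, used for names only. The members, the marker, assembly, growth and role lists and the rule for named genes were chosen with earlier results of these data known. Named were, per comparison and subunit, the 3 largest and 3 smallest log2 fold changes, the 3 highest and 3 lowest mean RPKM per subunit, the stalk and ubiquitin-fusion genes, members of the role lists and symbols that differ by a letter. Some members that this rule picks are not reported here. RpL6, RpL8, RpL32 and the genes named from the other lists with more than the 2 largest changes were chosen after their values were known. Alternatives were tried for the scaling, gene length, pseudocount (0.1), filter, libraries in the fit, replicate block and threshold, and each library was left out in turn.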

Additional observations from a re-analysis of the deposited data

How the results depend on the processing

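With 2 pools per group and no counts, sampling error could not be separated from the spread between pools, and changes are relative to each library's total. The count of ribosomal protein genes called as lower against queen-right workers stayed between 58 and 63 for queen-less workers and between 60 and 63 for queens under all settings at the main threshold. With an added demand of a log2 fold change of at least 1 it was 52 and 57.

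The median log2 fold change of the family moved by more than the spread between libraries under these scalings. For queen-less against queen-right workers it was -1.56 without the authors' factors, -1.24 with a trimmed mean of log ratios, -1.25 with median of ratios, -0.84 after quantile normalization, -1.25 after removal of the length trend, and -1.01 when libraries were scaled to the mRpL and mRpS median, which was added after seeing the data. For queens against queen-right workers it was -1.89, -1.51, -1.51 and -1.24 under the first 4 and -1.38 under the last. Leaving out single libraries gave -1.49 to -1.28, -1.74 to -1.61 and, for queens against queen-less workers, -0.38 to -0.17. The family's share of RPKM was 5.39% in queens and 10.9% in queen-right workers after quantile normalization. The cause of these moves was not tested.

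Over all entries 3301 and 3871 were called against queen-right workers with a log2 fold change of at least 1, in place of 5930 and 6304. Scaling to the mRpL and mRpS median gave 3595 higher and 2165 lower in queen-less workers, in place of 2686 higher and 3244 lower, and 3492 higher and 2772 lower in queens, in place of 2744 and 3560. Between queens and queen-less workers 130 entries were called, 82 after quantile normalization, 40 without a filter on low values, 42 with only the 4 libraries compared, 216 when scaled to the mRpL and mRpS median and 35 to 85 with single libraries left out. Among ribosomal protein genes 1 was called there after quantile normalization, and 0 to 1 lay apart from the family's own median with single libraries left out.

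The replicate numbers did not pair the pools: deviations of same-numbered libraries correlated with r = -0.129 for queen-less with queen-right workers, -0.0862 for queens with queen-right workers and 0.0614 for queens with queen-less workers. With the replicate number as a block 63, 63 and 0 ribosomal protein genes were called, as without it, and 72 entries in all between queens and queen-less workers.

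Signs turned in a few genes. RpL13 was 0.15 and RpL6 was 0.086 in queen-less against queen-right workers after quantile normalization (limma adjusted p = 0.287 and 0.585). RpL24 in queens against queen-right workers was 0.066 with a trimmed mean of log ratios, 0.065 with median of ratios, 0.64 after quantile normalization, 0.14 after removal of the length trend, -0.23 to 0.0026 with single libraries left out (0.0026 without queen replicate 2) and 0.19 when scaled to the mRpL and mRpS median. In queen-less against queen-right workers RpL24 was -0.13 without the authors' factors and -0.055 to 0.18 with single libraries left out (-0.055 without queen-less worker replicate 1). Between queens and queen-less workers leaving out single libraries gave -0.16 to 0.0025 in RpL26, -0.25 to 0.0176 in RpL7A and -0.0429 to 0.18 in RpL36A, the highest value in each case without queen-less worker replicate 1. RpL5, RpL6, RpL13 and RpS30 (queen-less workers) and RpL36A (queens) lost their calls against queen-right workers when scaled to the mRpL and mRpS median, and RpL13 after removal of the length trend.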

Other observations

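The growth pathways that set the output of ribosomes in insects were looked up by symbol, and 14 of 32 genes were matched. In queen-less against queen-right workers 5 were higher, 5 lower and 4 not called (median 0.22), where 30.6% of all tested entries were higher and 37.0% lower. S6kII, a kinase of the RSK type, had 41.5 and 43.1 RPKM in queen-less worker ovaries, against 13.7 and 18.1 RPKM in queen-right worker ovaries (1.56 ± 0.13 (SE), limma adjusted p = 4.81e-05), and rictor, the defining subunit of the second TOR complex, had 33.1 and 29.8 RPKM in queen-less worker ovaries, against 14.6 and 17.2 RPKM in queen-right worker ovaries (1.14 ± 0.12 (SE)). The transcription factor foxo, which acts when insulin signalling is low, had 8.44 and 8.67 RPKM in queen-less worker ovaries, against 51.1 and 49.6 RPKM in queen-right worker ovaries (-2.23 ± 0.14 (SE), adjusted p = 1.18e-05), and the insulin-like peptide gene ILP-2 had 2.66 and 2.34 RPKM in queen-less worker ovaries, against 10.01 and 12.1 RPKM in queen-right worker ovaries (-1.59 ± 0.26 (SE)). Opposed members of the pathway stood on both sides. Tsc1, an inhibitor of TOR, changed by 1.13 and its partner gig by -0.40, while Rheb, the activator of TOR that they hold in check, changed by -1.42 and Tor itself by 0.37. RpI1, the large subunit of RNA polymerase I that transcribes the rRNA genes, had 15.97 and 20.5 RPKM in queen-less worker ovaries, against 12.4 and 11.3 RPKM in queen-right worker ovaries (0.77 ± 0.18 (SE)), and RpI135, its second-largest subunit, changed by 0.27 and was not called (adjusted p = 0.0719). In queens against queen-right workers 6 were higher and 4 lower (median 0.18), with S6kII at 1.68, RpI1 at 1.12, foxo at -2.38 and ILP-2 at -1.80. Between queens and queen-less workers no gene of the list was called in limma, and the smallest adjusted p was 0.367.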
